A study of Mus musculus with 4 samples.

Results

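Skeletal muscle myosin light chains and the kinases that phosphorylate them were followed through 5 genes, Mylpf, Myl1, Myl4, Mylk2 and Mylk4. They were picked by symbol from the deposited read count table of 1000 genes, and all 5 were found there. The samples were tibialis anterior muscle of Dmd Dup2 mice, a Duchenne muscular dystrophy model with a duplicated exon 2 in the dystrophin gene. One group had been treated with scAAV9.U7-ACCA, an adeno-associated virus vector whose U7 small nuclear RNA acts on splicing, and the other was the untreated control. Both groups carry the Dup2 mutation, and no wild-type muscle was analysed here. Each muscle homogenate gave an mRNA library (total RNA sequencing) and a library of ribosome footprints, the mRNA fragments that ribosomes protect. There was 1 library in each of the 4 groups, mRNA treated, mRNA untreated, footprints treated and footprints untreated. The labels used here state neither age nor sex, nor how many animals a library holds.

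A myosin motor of the thick filament is built from heavy chains, and the neck of each heavy chain carries an essential and a regulatory light chain. Mylpf encodes the regulatory light chain of fast skeletal fibres, Myl1 the essential light chain of fast fibres, and Myl4 the essential light chain of embryonic skeletal and of atrial muscle. Mylk2 encodes skeletal muscle myosin light chain kinase, which is switched on by calcium and phosphorylates the regulatory light chain, a step known to raise the force of later twitches. Mylk4 encodes a further member of the same kinase family.

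The 5 genes held 71242 of 4248818 listed reads in treated mRNA and 3582 of 125236 in untreated mRNA. They held 26456 of 1664122 listed footprint reads in treated muscle and 76278 of 3349015 in untreated muscle. The table runs in falling order of untreated mRNA reads, down to 14, so a gene with fewer was not analysed here. The untreated mRNA library is the shallowest, with a median of 25 reads per gene, and it limits the precision of every mRNA ratio below. Of 10 fast skeletal fibre markers 9 were in the table, and Tnnt3 was not analysed here. Their summed level was 298018 TMM-scaled CPM in treated mRNA and 238900 in untreated mRNA. In footprints it was 334446 in treated and 323036 in untreated muscle. Marker sums, here and below, were taken with TMM alone, and the ratio between such sums moves with the scaling. Levels below are counts per 1e6 reads (CPM) after TMM scaling, which assumes that most genes do not differ between libraries. With it, 317 of 996 genes were called higher and 247 lower in mRNA by the rule given below, so the assumption may not hold here. Ratios are treated over untreated, and every interval is a 95% interval that covers counting error only. Calls (higher or lower) needed a 1.5-fold difference, an interval without 1 and 50 reads or more in the pair of libraries. With 1 library per group there is no replicate check and no test, and calls describe the libraries alone. In whole muscle, fewer cells of a type and less RNA per cell cannot be told apart.

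The data show 3 patterns among the 5 genes. Both kinase genes were higher in treated muscle, in mRNA and in footprints alike. The embryonic and atrial light chain gene Myl4 was lower in both, by far more in mRNA than in footprints. The fast light chain genes Mylpf and Myl1 had smaller differences, and with TMM, though not under every scaling, their footprint ratios lay below their mRNA ratios. In mRNA 2 members were called higher and 1 lower, where 31.8% and 24.8% of all genes compared were called higher and lower. In footprints 2 members were called higher and 2 lower, where 19.9% and 26.2% of all genes were called higher and lower.

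**Figure D1:**
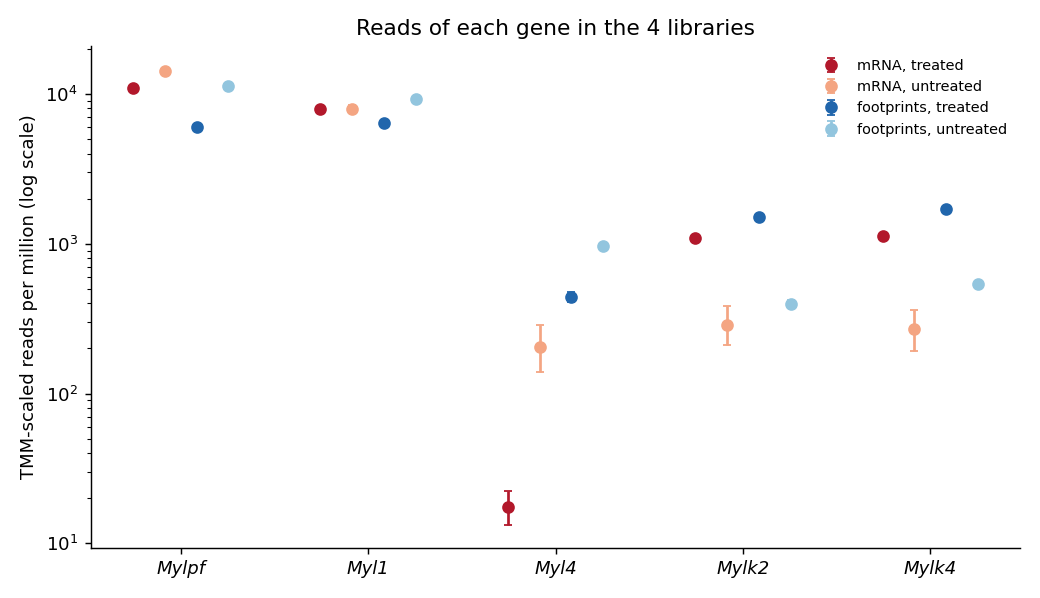
TMM-scaled CPM of each gene (vertical axis, log scale) in the 4 libraries, with 95% Poisson intervals that cover counting error only. Treated points lie above untreated points for Mylk2 and Mylk4 and below them for Myl4; heights of different genes are not comparable, since reads were not divided by transcript length.

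The kinases are described first. Mylk2 (NM_001081044) had 3693 reads in treated mRNA and 45 in untreated mRNA, or 1093 and 287 CPM after scaling. Its footprints numbered 2490 in treated and 1359 in untreated muscle, or 1514 and 399 CPM. The treated library was the higher of the pair in both kinds of library, and the intervals of treated and untreated levels did not overlap. The ratio was 3.81 (2.84 to 5.23) in mRNA and 3.79 (3.55 to 4.06) in footprints. At the scaled depth of the untreated mRNA library, the treated reads of Mylk2 would number 171, against the 45 counted there.

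Mylk4 (NM_001166030) had 3824 treated and 42 untreated mRNA reads, or 1132 and 268 CPM. Its footprint reads numbered 2813 in treated and 1845 in untreated muscle, or 1710 and 542 CPM. Again the treated libraries were the higher ones and the intervals did not overlap. The ratio was 4.22 (3.12 to 5.87) in mRNA and 3.16 (2.98 to 3.35) in footprints. Mylk2 and Mylk4 stood at places 62 and 43 of 996 genes from the highest mRNA ratio, and at places 14 and 24 of 999 from the highest footprint ratio.

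Both kinase genes were called higher in mRNA and in footprints under each of the 6 library scalings tried. The lowest mRNA ratios, with the authors' own library constants, were 2.07 (1.54 to 2.84) for Mylk2 and 2.29 (1.69 to 3.19) for Mylk4. Of the 174 genes with 30 to 49 untreated mRNA reads, the depth range that holds both kinases and Myl4, 31.0% were called higher in mRNA and 28.2% lower. The median ratio of those genes was 0.976.

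The regulatory light chain, which Mylk2 phosphorylates, was lower in treated footprints. Mylpf (NM_016754) had 36983 reads in treated mRNA and 2213 in untreated mRNA, or 10949 and 14124 CPM. It had 9921 treated and 38287 untreated footprint reads, or 6030 and 11242 CPM. The treated level was below the untreated level in both, and the intervals did not overlap. The mRNA ratio of 0.775 (0.743 to 0.81) did not reach the 1.5-fold threshold, whereas footprints were called lower, at 1.86-fold (1.82 to 1.91). Scaling decided the mRNA call: it was called lower in 4 other settings, at 0.421 with the authors' constants, 0.493 with listed totals, 0.588 with upper quartile scaling and 0.628 when the 20 most abundant genes were left out of the totals.

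The fast essential light chain gene Myl1 (NM_021285) had 26683 treated and 1250 untreated mRNA reads, or 7900 and 7978 CPM. Those levels had overlapping intervals, and the ratio was 0.99 (0.936 to 1.05). Its footprint reads numbered 10503 in treated and 31510 in untreated muscle, or 6384 and 9252 CPM, with intervals apart. The footprint ratio of 0.69 (0.675 to 0.705) lay just under the threshold. With the authors' constants Myl1 was called lower in both, at a ratio of 0.537 in mRNA and 0.572 in footprints. With the listed totals it was called lower in mRNA, at 0.629, and with the upper quartile in footprints, at 0.636.

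Myl4 (NM_010858) had 59 reads in treated mRNA and 32 in untreated mRNA, although the treated library was far deeper, so the levels were 17.5 and 204 CPM. Its footprint reads numbered 729 in treated and 3277 in untreated muscle, or 443 and 962 CPM. Both treated levels were the lower ones, with intervals apart. Myl4 was 11.7-fold lower (7.36 to 18.3) in treated mRNA and 2.17-fold lower (2.003 to 2.36) in treated footprints. It stood at place 4 of 996 genes from the lowest mRNA ratio and at place 116 of 999 from the lowest footprint ratio. At the scaled depth of the untreated library the treated mRNA reads would number 2.74, against 32 counted. Under the 6 scalings the mRNA value ran between 11.7-fold and 21.5-fold lower and the footprint value between 2.06-fold and 2.62-fold lower, each called lower.

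Marker levels of other cell types and fibre types also differed between the libraries. Of 9 macrophage markers 4 were in the table, and their summed level was 208 CPM in treated and 996 in untreated mRNA, and 563 and 1228 in treated and untreated footprints. Of 9 slow fibre markers 5 were in the table, with sums of 2794 CPM in treated and 1800 in untreated mRNA. Of these, 4 reached 50 reads in mRNA, where 1 was called higher and 3 lower, with a median log2 ratio of −3.36 over those 4. The higher one was the slow myosin heavy chain gene Myh7, at 2729 CPM in treated and 670 in untreated mRNA, 4.07-fold (3.36 to 4.98). The lower ones were Tnnt1, slow troponin T, at a ratio of 0.0238 (0.0129 to 0.0425), Casq2, the slow and cardiac calsequestrin, at 0.0455 (0.0342 to 0.0604), and Tpm3, a slow tropomyosin, at 0.210 (0.127 to 0.366). In footprints the slow sum was 7669 in treated and 9059 in untreated muscle, of which Myh7 made up 6917 and 7591. Of the 5 slow markers, 0 were called higher and 2 lower in footprints. These were Tnnt1, 14.3-fold lower (9.25 to 23.2), and Casq2, 2.13-fold lower (1.97 to 2.32). Of 6 cardiac markers only Myh6, a cardiac and atrial myosin heavy chain, was in the table, and the other atrial markers were not analysed here. Myh6 had 2992 CPM in treated and 1213 in untreated mRNA and was called higher at 2.47-fold (2.14 to 2.86), the opposite direction to Myl4, though not called with the authors' constants, at 1.34. Its footprint ratio was 1.07 (1.05 to 1.09). Of 6 smooth muscle markers 2 were in the table, with sums of 338 and 587 in treated and untreated mRNA and 2649 and 3450 in treated and untreated footprints. No listed marker was at 0 in any library, but neither was any other listed gene, the lowest count being 13, in treated footprints. The absence of 0 counts therefore says nothing about the cell types. Of 11 immature fibre genes 3 were in the table. Among them Actc1, the cardiac alpha-actin of developing fibres, was 6.23-fold lower (5.80 to 6.68) in treated mRNA, and its footprints were 4.64-fold lower (4.49 to 4.80). Myh3 and Myh8, the embryonic and neonatal heavy chains, had mRNA ratios of 1.11 (1.05 to 1.17) and 0.869 (0.844 to 0.894), with footprint ratios of 1.06 and 0.962. Heavy chain genes are alike in sequence, so reads of other heavy chain genes could enter the levels of Myh7, Myh6, Myh3 and Myh8. That was not tested. The part of these marker levels in the Myl4 and kinase results was not tested either.

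**Figure D2:**
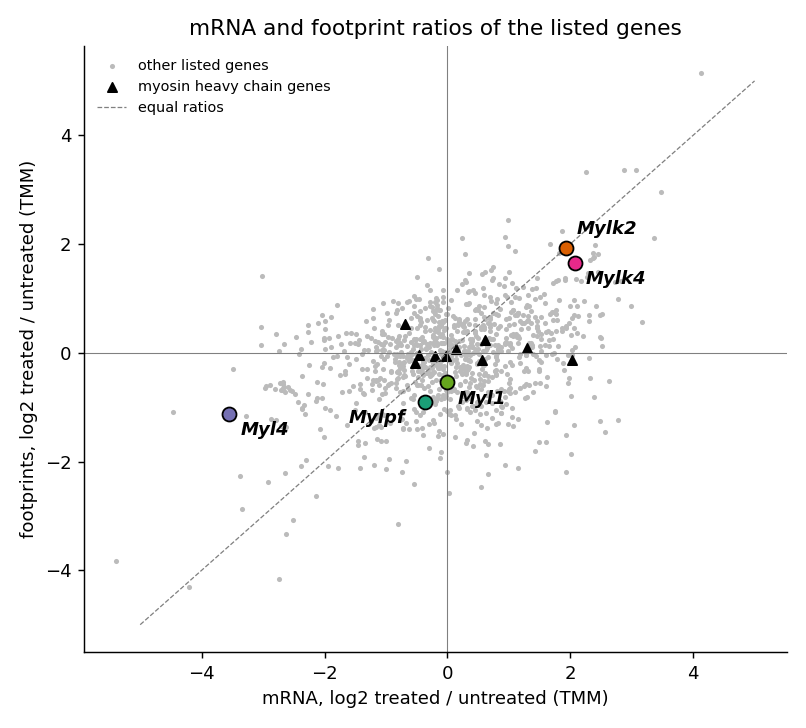
Each point is a listed gene, with its log2 treated over untreated ratio in mRNA (horizontal axis) and in footprints (vertical axis) after TMM scaling; triangles are myosin heavy chain genes. Mylk2 and Mylk4 lie near the dashed line of equal ratios at 1.93 and 1.92, and 2.08 and 1.66, while Myl4 lies well above it at −3.55 and −1.12.

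All ratios of one kind of library move together with the scaling. Over all genes compared, the median log2 ratio in mRNA was 0.06 with TMM and −0.82 with the authors' constants, and the footprint medians were −0.02 and −0.29. The place of a gene relative to the median gene does not depend on scaling. In mRNA, Mylk4 lay 2.02 and Mylk2 1.87 log2 units above the median gene, Myl1 at −0.07, Mylpf at −0.43 and Myl4 at −3.61. In footprints, Mylk2 lay 1.94 and Mylk4 1.68 above it, Myl1 at −0.51, Mylpf at −0.88 and Myl4 at −1.10. The median member stood at −0.01 in mRNA and −0.54 in footprints on the log2 scale, against 0.06 and −0.02 for all genes. Of called genes, 56.2% were higher in mRNA with TMM, against 16.8% with the authors' constants, 24.2% with listed totals, 35.7% with upper quartile scaling and 40.7% when the 20 most abundant genes were left out. In footprints the share was 43.2% with TMM and 23.8% with the authors' constants.

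**Figure D3:**
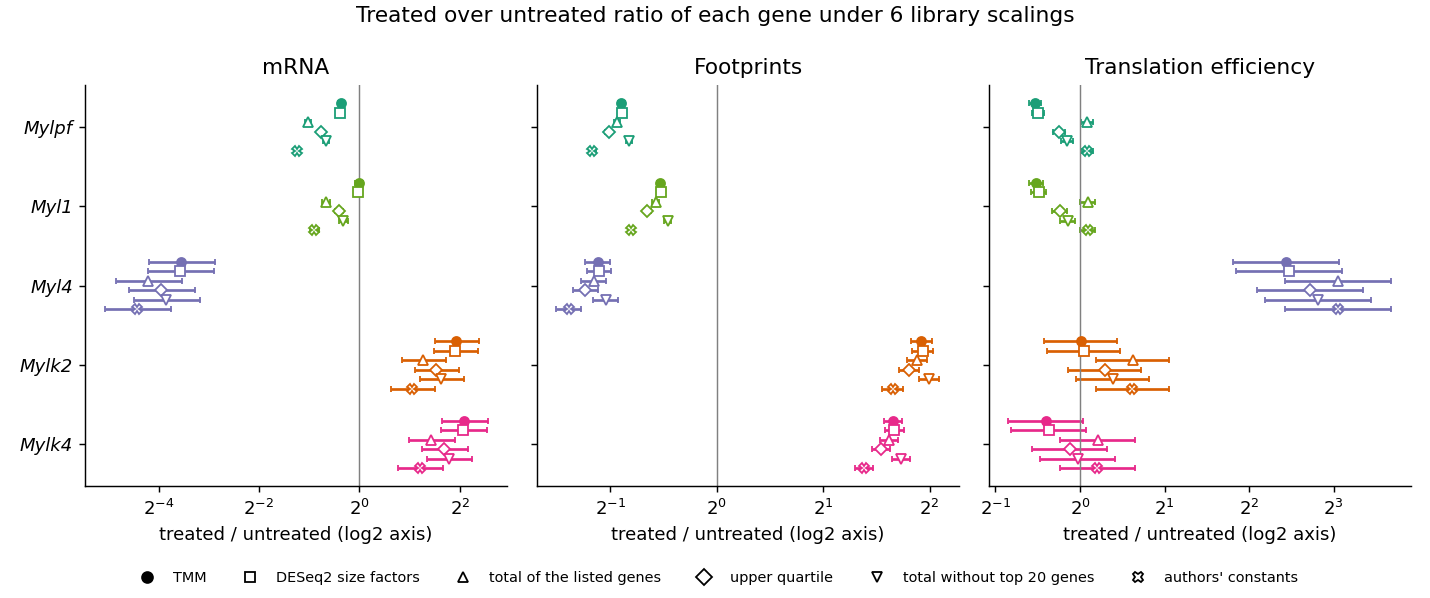
Treated over untreated ratio of each gene (log2 axis) in mRNA, footprints and translation efficiency, under 6 library scalings, with 95% intervals for counting error; filled circles are TMM. Both kinases stay to the right of 1 and Myl4 to the left in mRNA and footprints, and Myl4 stays to the right in translation efficiency; Mylpf, Myl1 and Mylk4 fall on both sides of 1 in translation efficiency, depending on the scaling.

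Ratios between genes of the same library need no scaling. Mylk2 had 99.9 reads per 1000 Mylpf reads in treated mRNA and 20.3 in untreated mRNA, a 4.91-fold difference (3.65 to 6.77). In footprints the values were 251 in treated and 35.5 in untreated muscle, a 7.07-fold difference (6.59 to 7.59). Mylk4 had 103 treated and 18.98 untreated mRNA reads per 1000 Mylpf reads, and 284 treated and 48.2 untreated footprint reads. The corresponding differences were 5.45-fold (4.01 to 7.59) in mRNA and 5.88-fold (5.52 to 6.27) in footprints. In both kinds of library, kinase reads per Mylpf read were thus higher in treated muscle. Mylk4 reads per Mylk2 read had a treated over untreated ratio of 1.11 (0.71 to 1.74) in mRNA and 0.832 (0.761 to 0.91) in footprints.

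Among the light chains the balance also shifted. Myl1 had 721 reads per 1000 Mylpf reads in treated and 565 in untreated mRNA, a ratio of 1.28 (1.19 to 1.37). In footprints it had 1059 in treated and 823 in untreated muscle, a ratio of 1.29 (1.25 to 1.33). The essential to regulatory balance of the fast light chains thus differed by nearly the same amount in mRNA and footprints. Myl4 made up 0.221% (0.168 to 0.285, exact binomial) of the essential light chain reads of Myl1 plus Myl4 in treated mRNA and 2.50% (1.71 to 3.51) in untreated mRNA. In footprints its share was 6.49% (6.04 to 6.96) in treated and 9.42% (9.12 to 9.73) in untreated muscle. These shares are of reads and were not divided by transcript length.

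The heavy chains are the binding partners of the light chains. Myh1, Myh2 and Myh4, the fast adult heavy chain genes, were taken as one sum, because these near-identical copies could share reads. A shared read could still be counted at several of them, or at a heavy chain gene outside the sum. That was not tested. The 3 light chain genes together had 102 reads per 1000 fast heavy chain reads in treated mRNA and 134 in untreated mRNA, 1.32-fold lower (1.27 to 1.37). In footprints they had 59.5 in treated and 102 in untreated muscle, 1.71-fold lower (1.69 to 1.74). Mylpf per heavy chain read was 1.44-fold lower (1.38 to 1.51) in treated mRNA and 1.91-fold lower (1.87 to 1.96) in treated footprints. Mylk2 per heavy chain read was 3.41-fold higher (2.54 to 4.57) in treated mRNA and 3.70-fold higher (3.46 to 3.95) in treated footprints. Of 10 heavy chain genes in the table, 3 were called higher and 1 lower in mRNA, and 0 either way in footprints. Among all genes compared, 31.8% were called higher and 24.8% lower in mRNA, and 19.9% and 26.2% in footprints. With the authors' constants 1 heavy chain gene was called higher and 6 lower in mRNA. Among all 996 genes 110 were then called higher and 543 lower. Of 5 listed fast thin filament genes, 0 were called higher and 1 lower in mRNA, and 1 higher and 1 lower in footprints. The lower one in mRNA was Tpm2, beta-tropomyosin, at 1.79-fold (1.71 to 1.87). The lower one in footprints was Acta1, skeletal alpha-actin, at 2.34-fold (2.31 to 2.38), and the higher one Tnni2, fast troponin I, at 1.86-fold (1.84 to 1.89). With the authors' constants 3 of these 5 genes were called lower in mRNA and 3 in footprints. Of all genes, 543 of 996 were then lower in mRNA and 365 of 999 in footprints.

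**Figure D4:**
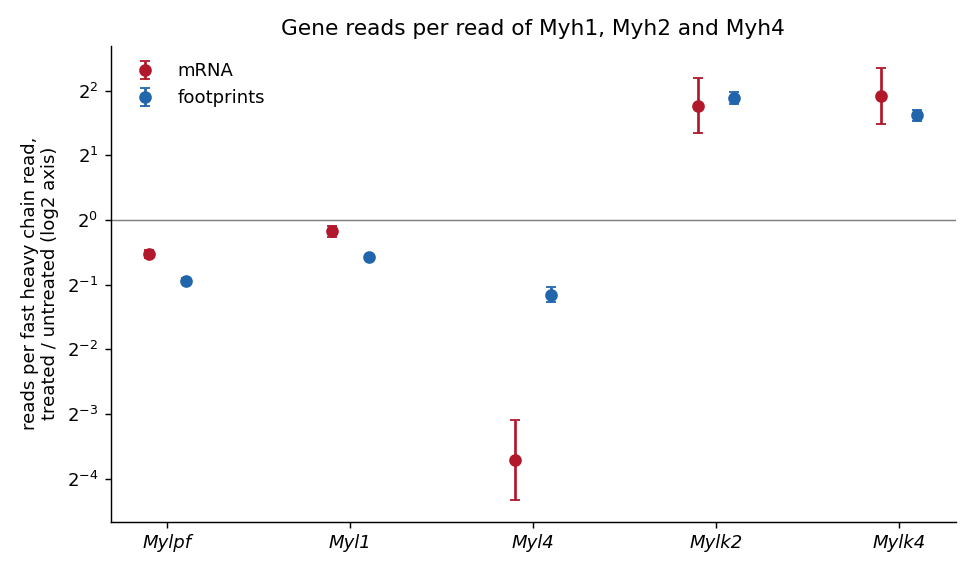
Reads of each gene per read of Myh1, Myh2 and Myh4 together, treated over untreated (vertical axis, log2), in mRNA and footprints, with 95% intervals for counting error. The kinases lie between 3.08 and 3.78, the fast light chains between 0.523 and 0.886, and Myl4 at 0.0765 in mRNA and 0.449 in footprints.

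Translation efficiency divides the ratio in footprints by the ratio in mRNA and asked whether ribosome number followed mRNA. Myl4 was called higher at 5.43 (3.51 to 8.38), place 20 of 995 genes, where 26% of all genes were called higher and 31.9% lower. No other member was called with TMM. The ratio was 0.692 (0.66 to 0.726) for Mylpf and 0.697 (0.656 to 0.741) for Myl1, both just under the fold threshold. It was 1.01 (0.746 to 1.36) for Mylk2 and 0.756 (0.556 to 1.03) for Mylk4. Scaling turned the direction of 3 members: with the listed totals the ratio was 1.06 for Mylpf, 1.07 for Myl1 and 1.16 for Mylk4. Mylk2 was then called higher, at 1.54 (1.14 to 2.08) with the listed totals and 1.54 with the authors' constants. Of called genes, 44.97% were higher in translation efficiency with TMM, against 73.8% with the authors' constants, 73.9% with listed totals, 59.97% with upper quartile scaling and 63.8% when the 20 most abundant genes were left out.

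Within one muscle, footprint reads per mRNA read can be set against the median listed gene, which also needs no scaling. Such a value depends on how much of a transcript is coding, so it is compared here for one gene between muscles. Myl4 lay 4.68 log2 units (4.30 to 5.06) above the median gene in treated muscle, the highest of 997 genes, and 2.21 (1.71 to 2.71) above it in untreated muscle, place 25 of 998. The middle 90% of genes ran between −2.53 and 1.70 in treated and between −1.74 and 1.62 in untreated muscle. Mylpf lay at −0.84 in treated and −0.33 in untreated muscle, and Myl1 at −0.28 and 0.21 in treated and untreated muscle. Mylk2 lay at 0.49 in treated and 0.46 in untreated muscle, and Mylk4 at 0.62 and 1.00 in treated and untreated muscle. Of the slow fibre genes, 3 were called higher and 1 lower in translation efficiency. Casq2 had a ratio of 10.3 (7.75 to 13.7), Tpm3 of 4.17 (2.51 to 6.93) and Tnnt1 of 2.97 (1.48 to 5.96), on the same side as Myl4. Myh7 lay on the other side, at 0.225 (0.185 to 0.273).

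**Figure D5:**
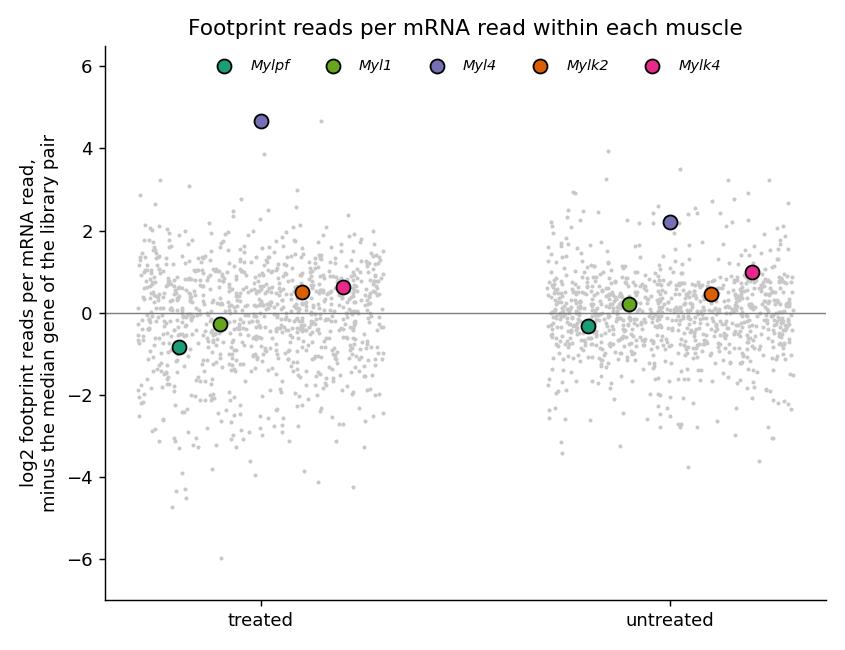
Footprint reads per mRNA read of each listed gene (grey) on a log2 scale relative to the median gene of the same muscle, treated and untreated, with the 5 genes in colour; horizontal scatter has no meaning. Myl4 lies at 4.68 in treated and 2.21 in untreated muscle, while the other 4 genes stay between −0.84 and 1.00.

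Other light chain genes and the phosphorylation cycle were followed with lists. Of 10 other myosin light chain genes 2 were in the table and with TMM 0 were called in mRNA or footprints. Myl6, the nonmuscle and smooth muscle essential light chain, had 310 treated and 20 untreated mRNA reads and a ratio of 0.719 (0.458 to 1.19). Its footprint ratio was 0.797 (0.697 to 0.911). Myl10, a regulatory light chain family gene, had 2737 treated and 89 untreated mRNA reads, a ratio of 1.43 (1.15 to 1.78). Its footprint ratio was 0.76 (0.668 to 0.863), and its translation efficiency was called 1.87-fold lower (1.46 to 2.38). Scaling decided the mRNA call of Myl6. It was called lower with the listed totals, at 0.457, and with upper quartile scaling, at 0.546. It was also lower without the 20 most abundant genes, at 0.582, and with the authors' constants, at 0.390. With the authors' constants Myl6 was called lower in footprints too, at 0.661. Myl10 then had an mRNA ratio of 0.774 and was called lower in footprints, at 0.629, while its translation efficiency was not called. Nor was the translation efficiency of Myl10 called with the listed totals or without the 20 most abundant genes.

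Phosphatase genes remove the phosphate that the kinases add. Of the light chain phosphorylation cycle, 4 genes of protein phosphatase 1 were in the table, with 2 called higher and 0 lower in mRNA. In footprints 0 were called higher and 2 lower, where 19.9% and 26.2% of all genes were called higher and lower. Ppp1cc, added after its values were seen, is among the 2 called in mRNA and the 2 called in footprints. These counts leave out 1 further listed gene of the cycle, which is not reported here. Ppp1cb, the catalytic subunit found in myosin phosphatase, was 4.06-fold higher (2.59 to 6.75) in treated mRNA, with a footprint ratio of 1.25 (1.10 to 1.42). Ppp1r12b, a myosin-targeting subunit of that phosphatase, had ratios of 0.955 (0.698 to 1.34) in mRNA and 1.13 (0.977 to 1.31) in footprints. Ppp1ca, another catalytic subunit of protein phosphatase 1, had an mRNA ratio of 1.59 (0.983 to 2.75) and footprints 4.66-fold lower (3.74 to 5.89). The related Ppp1cc was 1.83-fold higher (1.08 to 3.36) in treated mRNA and 2.15-fold lower (1.64 to 2.87) in treated footprints. Untreated mRNA reads were few, with 19 for Ppp1cb, 17 for Ppp1ca and 14 for Ppp1cc, the lowest count listed. Of the 577 genes with 14 to 29 untreated mRNA reads, 35.4% were called higher in mRNA and 21.3% lower. Ppp1cb in mRNA and Ppp1ca and Ppp1cc in footprints were called the same way under all 6 scalings. Scaling decided the mRNA call of Ppp1cc. It was not called with the listed totals, at 1.16, or with upper quartile scaling, at 1.39. Nor was it called without the 20 most abundant genes, at 1.48, or with the authors' constants, at 0.991. Ppp1r12b was called lower in mRNA with the listed totals, at 0.607, and with the authors' constants, at 0.518.

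For each member the 3 genes closest in pattern over the 4 libraries were found by Euclidean distance between log2 levels centred on each gene's mean, among 994 candidates. For Mylk2 these were Asb5, a ubiquitin ligase adaptor (distance 0.26), Phkg1, a catalytic subunit of phosphorylase kinase (0.33), and Mylk4 (0.40). For Mylk4 they were Phkg1 (0.23), Mylk2 (0.40) and Asb5 (0.43). Phkg1 had ratios of 3.53 in mRNA and 3.59 in footprints, and Asb5 of 3.19 and 4.02. The nearest genes of Mylpf were Ndufv2, a subunit of respiratory complex I (0.16), Aimp1 (0.21) and Ptcd3 (0.23). Those of Myl1 were Etfa, an electron transfer flavoprotein subunit (0.14), Slc25a11, a mitochondrial carrier (0.16), and Ran, a nuclear transport GTPase (0.22). The distances of Myl4 were larger, and its nearest genes were Casq2 at 1.42, Apoe at 1.85 and Tpm3 at 1.86.

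The upstream sequences of Mylk4, which was higher in treated muscle, and Myl4, which was lower, are given to show how they differ. They are the 250 bases before the gene start in the RefSeq promoter table, which held 4 of the 5 members and was matched by symbol; Mylk2 had no entry. Capitals mark E-boxes, CANNTG, the site bound by myogenic basic helix-loop-helix factors.
Mylk4 promoter, chr13:32783965-32784214, minus strand, GRCm38.p6: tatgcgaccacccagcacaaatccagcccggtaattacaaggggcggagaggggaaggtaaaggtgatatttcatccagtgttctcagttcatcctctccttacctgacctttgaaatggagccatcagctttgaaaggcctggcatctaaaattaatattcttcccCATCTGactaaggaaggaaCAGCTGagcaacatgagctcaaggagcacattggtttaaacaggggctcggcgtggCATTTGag
Myl4 promoter, chr11:104550413-104550662, plus strand, GRCm38.p6: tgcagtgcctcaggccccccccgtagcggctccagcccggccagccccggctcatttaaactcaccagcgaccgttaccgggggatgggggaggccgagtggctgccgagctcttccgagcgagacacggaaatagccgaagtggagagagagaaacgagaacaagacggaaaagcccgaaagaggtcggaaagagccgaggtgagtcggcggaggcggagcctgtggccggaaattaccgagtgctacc
The Mylk4 window held 3 E-boxes, which began 83, 64 and 8 bases before the start, and the Myl4 window held 0. Mylpf and Myl1 windows held 1 E-box each. Among all 32851 windows of this length 66.2% held an E-box, so its presence is common. The E-boxes of Mylpf and Myl1 and 1 of those in Mylk4 read CAGCTG, which 13.0% of windows held and the Myl4 window did not. The Mylk4 window also held 1 match to the MEF2 consensus, as did 2.92% of windows, and the other 3 windows held 0. TATAAA, searched on both strands like the other motifs, was found in the Myl1 window alone of the 4, and in 12.4% of all windows. These matches describe letters and not binding. Nothing in these libraries measures the promoters.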

How the data were processed

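The 4 libraries, 1 per group, were analysed. Read counts per gene are as the authors deposited them, per the file headers, for 1000 genes ranked by untreated mRNA count; no source used here gives the counting tool. The submitters' processing notes name Trimmomatic, STAR, edgeR and the mm9 build, with no role for any. The deposited normalized values equal count times 1 constant per library within 0.1 in 100% of genes and were read as CPM, a scale inferred from the values. Read counts were used here, scaled with TMM (edgeR 4.0.16, R 4.3.3) over all listed genes. Ratios carry exact conditional binomial 95% intervals. Translation efficiency had 0.5 added to each count and a normal interval on the log scale. Ratios between genes carry conditional odds ratio intervals, or log-normal ones against the heavy chain sum. Intervals cover counting error only, and they treat reads as independent, although reads are not independent molecules. Alternatives were 5 other scalings including DESeq2 1.42.0 size factors, no minimum or a minimum of 200 reads, a 2-fold threshold and 5 added reads. The calling code was tested on simulated data. With no replicates no spread was estimated and no p-value is given. The members and lists were chosen with earlier results of these data known. Named genes are the members, up to 4 genes a list with the most reads and the 3 nearest genes in pattern, and Ppp1cc was added after its values were seen. 1 further gene of the phosphorylation cycle list is not reported here. Of the 5 members, 4 matched the GRCm38.p6 RefSeq gene table by identifier; it was used for names alone.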

Additional observations from a re-analysis of the deposited data

How the results depend on the processing

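Under TMM, 2 members were called higher and 1 lower in mRNA, 2 higher and 2 lower in footprints, and 1 higher and 0 lower in translation efficiency. The number lower in mRNA was 3 with the listed totals and with the authors' constants, 2 with the upper quartile and without the 20 most abundant genes, and 0 with a minimum of 200 summed reads, which leaves out Myl4. Of 996 genes tested, 247 were called lower in mRNA under TMM, 464 with the listed totals and 543 with the authors' constants. The number lower in footprints was 3 with the authors' constants and under upper quartile scaling, and 1 with the 2-fold threshold. Of 999 genes tested, 262 were called lower in footprints under TMM, 365 with the authors' constants and 302 under upper quartile scaling. The number higher in translation efficiency was 2 with the listed totals and with the authors' constants, and 0 with the minimum of 200 reads. Of 995 genes tested, 259 were called higher in translation efficiency under TMM, and 444 with the listed totals and with the authors' constants alike. The numbers higher in mRNA and in footprints stayed at 2 in every alternative, and the number lower in translation efficiency at 0. Of 80 single ratios recomputed for the members, 41 stayed within the TMM interval and 39 moved outside it, and no called one changed direction. A comparison of ratios between members with and without length correction was not run, because coding lengths were not used here. No paired analysis was possible because each group has 1 library. Depth limits the mRNA ratios of Mylk2, Mylk4 and Myl4, which rest on 45, 42 and 32 untreated reads. Those of Ppp1cb, Ppp1ca and Ppp1cc rest on fewer, 19, 17 and 14. The table holds the genes with the most untreated mRNA reads, and no source used here says how reads that map to several places were counted. Some listed genes had the same values: 0610010B08Rik, Gm14308 and Gm14434 all had log2 ratios of 1.14 in mRNA and 0.73 in footprints. Whether shared reads were counted at each copy was not tested.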
